A study of Mus musculus with 12 samples.

Results

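The 10 genes described here are Mpo, Elane, Prtn3, Ctsg, Lyz2, Ngp, Camp, S100a8, S100a9 and Plac8, a set of neutrophil granule and early myeloid genes taken by name, and all 10 were found by their Ensembl identifiers among the 32285 identifiers of a hematopoietic stem cell (HSC) table and the 56980 of a macrophage table. RNA was measured by bulk sequencing in cells sorted from C57BL/6 mouse fetal livers at stage E14.5. All embryos carried floxed Jag1, the gene of the Notch ligand Jagged1, on both alleles, and either lacked or carried the Vav-Cre transgene, whose promoter is active in blood cells and can also act in endothelium. The Cre negative HSC samples, titled VavCre-Jag1 f/f, are called WT in their genotype label, and their counterparts are VavCre+Jag1 f/f littermates. HSCs were sorted at 2000 cells per library by a gate on live CD45+ lineage- cells with cKit, Sca1 and CD150 and without CD48, and macrophages at 1000 to 3000 cells per library as CD169+ cells. Each of the 4 groups had 3 libraries, and the labels do not say whether these came from separate embryos, so p-values measure only the spread between these libraries.

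Neutrophils fill their granules in order as they mature. Azurophil granules come first, in promyelocytes, and hold myeloperoxidase and the serine proteases elastase, proteinase 3 and cathepsin G. Specific granules follow, with cathelicidin and neutrophilic granule protein, while S100a8 and S100a9 pair in the cytosol as calprotectin and accumulate in late stages. The transcription factors PU.1 and C/EBP drive many of these genes in the myeloid lineage. In the fetal liver, such transcripts are found in myeloid progenitors and their progeny, and Mpo and Plac8 also mark multipotent progenitors that have begun to turn to the myeloid side.

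The promoters of 5 of these genes are shown as examples of both peak libraries in HSCs, Mpo and Elane for Cre positive replicate 1 and S100a8, S100a9 and Ngp for Cre positive replicate 2. Each window is 300 bases of RefSeq sequence on build GRCm38.p6, 250 before and 50 after the annotated start site, written 5′ to 3′ on the strand of the gene. Capitals mark matches, on either strand, to the PU.1 hexamer GAGGAA or the C/EBP octamer TTNNGNAA.
Mpo, chr11:87793534-87793833, plus strand: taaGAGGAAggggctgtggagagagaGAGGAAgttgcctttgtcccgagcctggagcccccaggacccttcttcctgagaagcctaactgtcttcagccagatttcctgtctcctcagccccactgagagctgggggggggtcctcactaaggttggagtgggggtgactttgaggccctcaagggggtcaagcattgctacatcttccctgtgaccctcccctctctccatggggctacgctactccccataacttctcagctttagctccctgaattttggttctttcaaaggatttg
Elane, chr10:79886062-79886361, plus strand: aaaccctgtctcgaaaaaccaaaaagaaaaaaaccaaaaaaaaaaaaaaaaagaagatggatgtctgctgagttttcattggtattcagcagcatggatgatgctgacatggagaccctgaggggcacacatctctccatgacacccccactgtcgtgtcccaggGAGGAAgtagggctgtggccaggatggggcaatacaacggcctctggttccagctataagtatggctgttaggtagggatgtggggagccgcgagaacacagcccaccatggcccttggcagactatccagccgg
S100a8, chr3:90668821-90669120, plus strand: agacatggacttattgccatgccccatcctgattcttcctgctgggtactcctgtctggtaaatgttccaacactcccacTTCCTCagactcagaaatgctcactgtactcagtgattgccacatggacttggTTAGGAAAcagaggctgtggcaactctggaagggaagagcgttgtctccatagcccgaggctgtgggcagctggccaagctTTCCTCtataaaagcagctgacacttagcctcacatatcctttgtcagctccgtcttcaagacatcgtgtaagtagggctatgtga
S100a9, chr3:90695672-90695971, minus strand: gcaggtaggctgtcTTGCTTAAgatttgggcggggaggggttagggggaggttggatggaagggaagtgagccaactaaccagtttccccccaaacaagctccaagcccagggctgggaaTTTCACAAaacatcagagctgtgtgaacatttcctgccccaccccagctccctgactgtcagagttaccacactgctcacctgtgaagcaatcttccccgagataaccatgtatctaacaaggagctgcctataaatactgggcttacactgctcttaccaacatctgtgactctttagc
Ngp, chr9:110419558-110419857, plus strand: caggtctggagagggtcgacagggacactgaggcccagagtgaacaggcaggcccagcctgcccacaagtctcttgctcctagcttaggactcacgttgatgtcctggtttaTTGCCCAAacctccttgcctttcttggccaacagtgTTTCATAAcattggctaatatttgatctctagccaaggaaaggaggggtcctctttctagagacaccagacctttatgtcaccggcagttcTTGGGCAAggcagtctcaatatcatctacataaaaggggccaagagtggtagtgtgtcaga
The Mpo window holds 2 matches to the PU.1 hexamer and that of Elane 1, and neither holds the octamer. Prtn3 and Ctsg have the same pattern, with 1 hexamer each. The window of S100a8 holds 1 octamer and 2 hexamers, that of S100a9 2 octamers, and that of Ngp 3 octamers. Lyz2 has 1 octamer, both annotated Plac8 windows have 1, the first of them with 2 hexamers as well, and Camp has neither motif. Of all 32851 windows in the same table, 28.3% hold the hexamer and 40.7% the octamer, so that either motif is common at this length. The motifs did not follow the peak library: Prtn3, with the hexamer alone, and Camp, with neither motif, both peaked in Cre positive replicate 2. A match describes these letters only and is not evidence of binding.

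Depth was 51982064 to 77463770 counted reads in HSC libraries. For macrophages it was 17230019 to 24658205 without and 2602934 to 5366990 with Vav-Cre. Levels are given as CPM, counts scaled to library sizes corrected by TMM within each table, and are not compared between the tables. Jag1 measured 52.6, 21.1 and 26.3 CPM in Cre negative and 0, 10.6 and 6.79 CPM in Cre positive macrophages. Its level in Cre negative HSCs was 6.53, 6.87 and 1.16 CPM, and that in Cre+ labelled HSCs 10.5, 0 and 19.5 CPM. Cre+ labelled replicates 1 and 3 thus lay above all Cre negative libraries, against what their labels would give. A gene-level count can show the deletion only in part, so it does not decide whether a label is wrong. HSC libraries are therefore named by their labels, Cre+ labelled standing for those marked as carrying Vav-Cre. Many transcripts came and went between libraries of these small sorts: of 11656 genes reaching 10 CPM in some HSC library, 10.6% had 0 reads in another, and of 14197 such genes in macrophages 38.4% did.

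In HSC libraries 9 of the 10 genes entered the test, and each of the 9 had a higher mean in Cre+ labelled libraries, but none passed. Plac8 had 3.37 times its Cre negative mean and Lyz2 1.81 times. Both separated the groups without overlap. The other 7 tested genes overlapped between the groups, and 7 of the 10 had their highest level in the same library, that labelled Cre positive replicate 2, while Mpo, Elane and Ctsg had theirs in Cre positive replicate 1. Over all genes, 0 of 13962 (0%) passed the quasi-likelihood test of edgeR at a Benjamini-Hochberg adjusted p under 0.05, with 892 at an unadjusted p under 0.05. DESeq2 called 25 genes as higher (0.179%) and 104 as lower. Groups that did not overlap, higher in Cre+ labelled libraries, were found for 2 of the 9 tested genes, against 6.37% of all genes tested. The median log2 fold change of the 9 genes was 0.76, against -0.00 for all genes tested. That median was 0.42 without Cre positive replicate 2. In bulk libraries such as these, fewer cells of a type and less RNA per cell cannot be told apart.

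**Figure D1:**
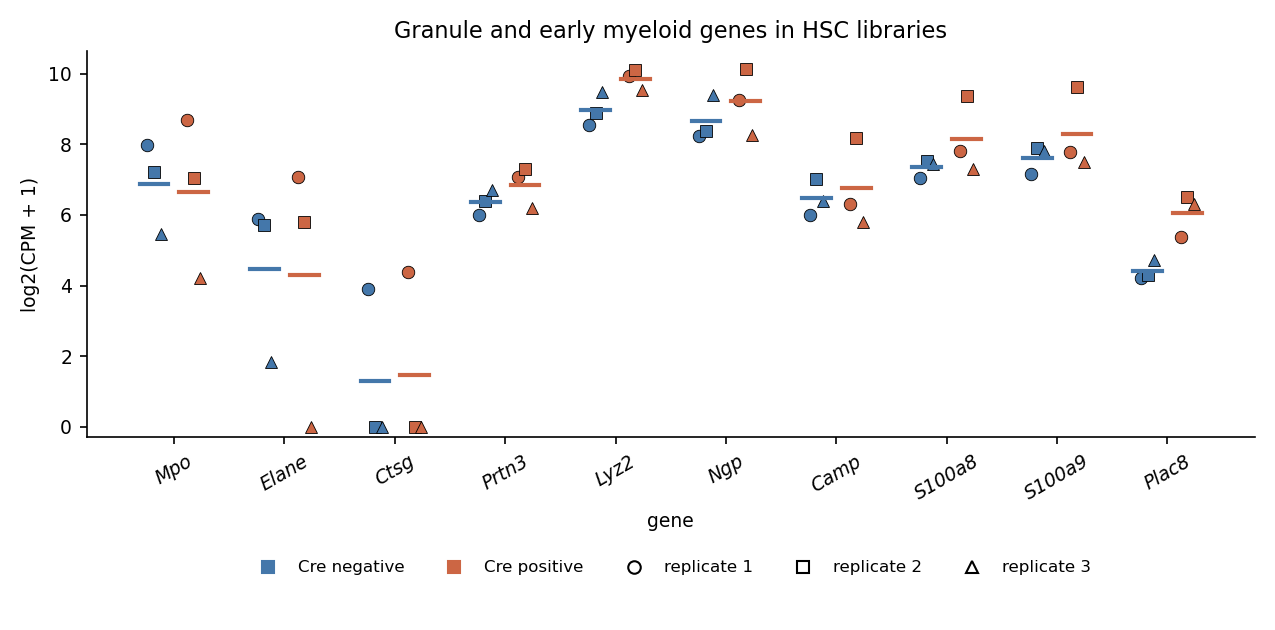
Level of each of the 10 genes in the 6 HSC libraries, as log2(CPM + 1), with colour for the Cre label, marker shape for the replicate number and a horizontal line at the mean of the 3 log2 values of a group. Plac8 and Lyz2 separate the groups, the S100 genes have 1 high library, and Elane and Ctsg reach 0.

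Mpo, myeloperoxidase, which makes hypochlorous acid, lies on chromosome 11 (87793581 to 87804413, plus strand of GRCm38). It measured 254, 148 and 42.6 CPM in Cre negative HSC replicates 1, 2 and 3, and 411, 131 and 17.7 CPM in Cre+ labelled replicates 1, 2 and 3. Replicate 1 was the high library and replicate 3 the low one under both labels, and the range within a label was wider than the difference between labels. The log2 fold change was 0.33 with a standard error (SE) of 0.98 (edgeR adjusted p = 0.996), and it was -1.00 without Cre positive replicate 1 and -0.11 without Cre negative replicate 3. Elane, neutrophil elastase (chromosome 10, 79886247 to 79888215), measured 57.6, 51.1 and 2.57 CPM in Cre negative libraries. In Cre+ labelled ones it measured 134 and 54.9 CPM and had 0 reads in replicate 3, where 3 reads would be 0.0409 CPM. It was thus low or at 0 in the same replicate 3 libraries that were lowest in Mpo. Its log2 fold change of 0.76 had an SE of 1.83 (edgeR adjusted p = 0.996) and was -0.44 without Cre positive replicate 1.

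Ctsg, cathepsin G (chromosome 14, 56099881 to 56102574), had 744 reads in Cre negative replicate 1 (13.9 CPM), 1068 reads in Cre positive replicate 1 (20.0 CPM) and 0 reads in the other 4 HSC libraries. With reads in 1 library of each group it did not pass the filter on low counts and was not tested. The libraries with Ctsg reads were those with the highest Mpo. Prtn3, proteinase 3 (chromosome 10, 79874476 to 79883174), lies 3.07 kb upstream of Elane and showed another order. Its values were 62.6, 83.8 and 103 CPM in Cre negative and 134, 158 and 72.2 CPM in Cre+ labelled libraries. Replicate 3, the lowest in Mpo and Elane, was the highest Cre negative library in Prtn3, and the groups overlapped through Cre positive replicate 3 (log2 fold change 0.55, SE 0.35, edgeR adjusted p = 0.877). The annotated Prtn3 locus overlaps Plppr3 on the other strand, and Mpo overlaps the antisense gene Gm11505. The library kit does not mark strand, so reads in the overlaps cannot be assigned to either gene.

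Lyz2, the lysozyme of neutrophils, monocytes and macrophages (chromosome 10, 117277331 to 117282321, minus strand), measured 376, 471 and 720 CPM in Cre negative HSC libraries and 987, 1107 and 738 CPM in Cre+ labelled ones. The lowest Cre positive library exceeded the highest Cre negative one by a narrow margin, 738 against 720 CPM. The log2 fold change was 0.85 (SE 0.28, edgeR unadjusted p = 0.0153, adjusted p = 0.689). Over 12 alternative fits the fold change stayed between 0.66 and 1.15 on the log2 scale, and the adjusted p between 0.0889 in DESeq2 and 1.00. Its near-identical neighbour Lyz1, 5.48 kb away, received 0 to 6 reads per HSC library, so few reads were assigned to the copy, and how reads matching both were counted is not given in the sources used here. Summed markers of macrophages, which also express Lyz2, measured 3021, 2597 and 2703 CPM in Cre negative and 3265, 1696 and 3238 CPM in Cre+ labelled libraries. Those of monocytes measured 351, 348 and 466 CPM and 609, 280 and 427 CPM. In Cre positive replicate 2 the highest Lyz2 level stood beside the lowest sum of both lists. The sum of mature neutrophil markers other than the S100 pair was highest in that library, at 247 CPM, and lay between 54.3 and 143 CPM elsewhere. The part of these cells in the Lyz2 reads was not tested.

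Ngp, neutrophilic granule protein (chromosome 9, 110419747 to 110423012), measured 301, 333 and 677 CPM in Cre negative and 607, 1132 and 306 CPM in Cre+ labelled libraries. Camp, the cathelicidin precursor of antimicrobial peptide, lies 570 kb away on the same chromosome (109847379 to 109849617) and measured 62.5, 129 and 83.1 CPM and 78.4, 289 and 55.2 CPM. Cre positive replicate 2 was the highest library for both, and Cre positive replicate 3 was the lowest for Camp and among the lowest for Ngp. The log2 fold changes were 0.64 (SE 0.49) for Ngp and 0.62 (SE 0.61) for Camp (edgeR adjusted p = 0.925 and 0.975). Without Cre positive replicate 2 they were 0.06 and -0.46.

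S100a8 and S100a9 encode the calprotectin subunits and lie 22.6 kb apart on chromosome 3, at 90668978 to 90670035 and 90692632 to 90695721. S100a8 measured 131, 185 and 174 CPM in Cre negative HSCs and 222, 664 and 156 CPM in Cre+ labelled ones. For S100a9 the values were 142, 237 and 225 CPM and 220, 789 and 180 CPM. S100a8 was 3.00-fold and S100a9 3.33-fold higher in Cre positive replicate 2 than in the next highest library, and the other 2 libraries with that label lay within or close to the Cre negative range. S100a8 had a log2 fold change of 1.09 (SE 0.51, edgeR adjusted p = 0.806) and S100a9 one of 0.98 (SE 0.55, adjusted p = 0.862), and these were 0.21 and -0.010 without that library. The excess of this pair over the Cre negative mean was thus carried by 1 library of 3.

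Plac8, a small cysteine-rich protein of myeloid progenitors and other white blood cells (chromosome 5, 100553725 to 100572245), measured 17.7, 18.8 and 25.4 CPM in Cre negative HSC libraries and 40.6, 90.7 and 77.7 CPM in Cre+ labelled ones. All 3 libraries with the Cre positive label lay above all 3 Cre negative ones, and the lowest of them was that with the highest Mpo. The log2 fold change was 1.75 (SE 0.41, edgeR unadjusted p = 0.00285, adjusted p = 0.689). It lay between 1.52 and 2.03 in 12 alternative fits, and the adjusted p between 0.0238 and 1.00. The lowest value, from DESeq2, passed the threshold, and Plac8 was the only 1 of the 9 genes that DESeq2 called. In Cre positive replicate 3, where Mpo, Elane and Camp had their lowest HSC levels, Plac8 and Lyz2 lay above all Cre negative libraries.

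**Figure D2:**
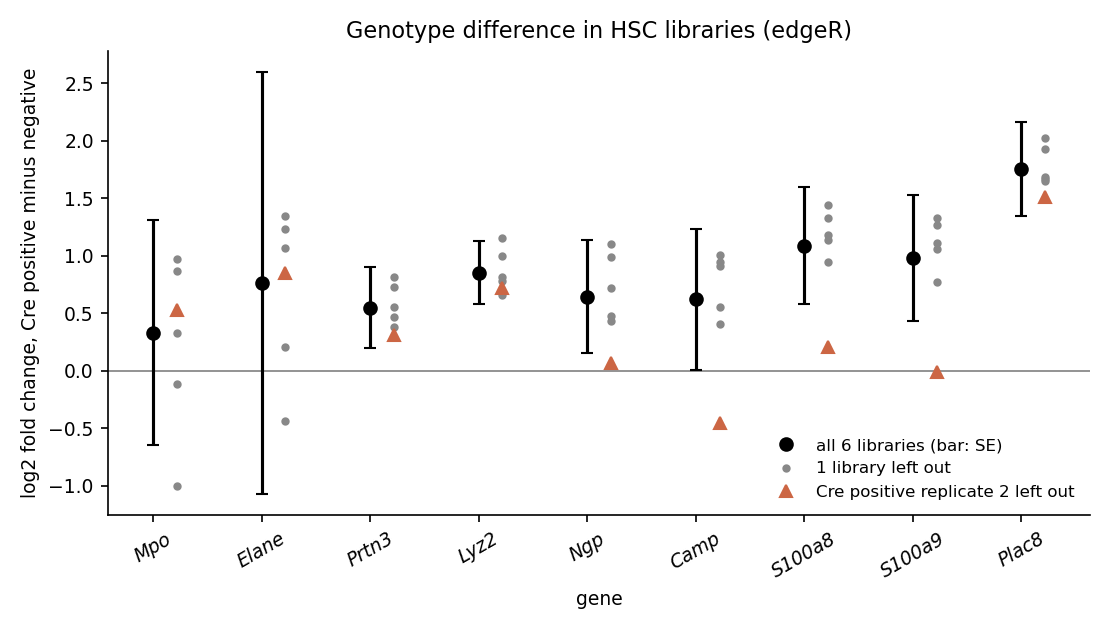
Log2 fold change of the 9 tested genes in HSC libraries, labelled Cre positive minus Cre negative, with all 6 libraries (black, bar for SE) and with each library left out (grey points, orange triangle for Cre positive replicate 2). The triangles of S100a8, S100a9, Ngp and Camp fall to between -0.46 and 0.21, while those of Lyz2 and Plac8 stay at 0.72 and 1.52.

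Levels per length of merged exons allow a rough comparison between genes, as that length counts every annotated exon and not the transcript present. The order of medians over the 6 HSC libraries was led by Lyz2 at 554 CPM per kb, S100a9 at 426, Ngp at 385 and S100a8 at 259 CPM per kb. Camp followed at 107 CPM per kb. Elane and Prtn3 were close, at 53.9 and 53.8 CPM per kb, above Mpo at 40.6 and Plac8 at 20.7 CPM per kb, and Ctsg was last at 0. The ranges of neighbours in this order overlapped throughout. On this scale Mpo spanned 5.16 to 120 CPM per kb, 23.3-fold between the lowest and highest library, whereas Lyz2 spanned 286 to 841 and Prtn3 36.1 to 91.2 CPM per kb, 2.94-fold and 2.52-fold.

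The 10 genes did not vary together across the HSC libraries. The ratio of S100a8 to S100a9 reads stayed between 0.776 and 1.01 in all 6 libraries. In contrast, the ratio of Mpo to S100a9 reads ranged from 0.0981 to 1.87, 19.1-fold, and that of Prtn3 to Mpo from 0.246 to 4.09. Between the neighbours Elane and Prtn3 the ratio ran from 0 to 1.00. Camp took 0.123 to 0.387 reads per Ngp read. The 4 azurophil genes other than lysozyme together took 0.0357%, 0.0283% and 0.0151% of reads in Cre negative replicates 1, 2 and 3 and 0.0719%, 0.0352% and 0.00894% in Cre+ labelled ones. For the S100 pair the shares were 0.0251%, 0.0423% and 0.0408% and 0.0454%, 0.149% and 0.0334%. Ngp and Camp took 0.0334%, 0.0463% and 0.0777% and 0.0705%, 0.146% and 0.0360%. The azurophil sum was highest in Cre positive replicate 1, and those of the S100 pair and of Ngp and Camp in Cre positive replicate 2, which was also the highest library for Prtn3. All 10 genes together took 0.131% to 0.210% of reads in Cre negative libraries and 0.159% to 0.452% in Cre+ labelled ones.

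**Figure D3:**
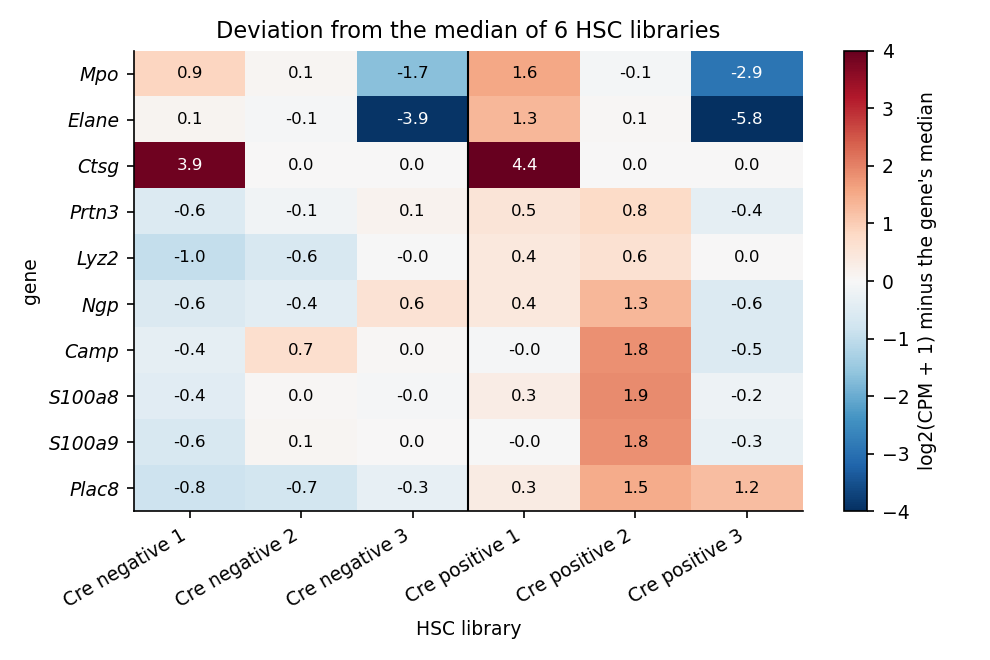
Deviation of log2(CPM + 1) from the median of the gene over the 6 HSC libraries, genes in rows and libraries in columns, red above and blue below the median. Mpo, Elane and Ctsg are high in the replicate 1 columns and Mpo and Elane low in the replicate 3 columns, while the S100 pair, Camp and Ngp are high in the column of Cre positive replicate 2 and Plac8 in those of Cre positive replicates 2 and 3.

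Genes most like each group were sought among 10455 other genes with a mean of at least 5 CPM, by Pearson r of log2(CPM + 1) over the 6 HSC libraries, as a description without a test. Nearest to the mean of S100a8 and S100a9 were Dcaf17 (r = 0.98), Hipk2 (r = 0.97) and Baz2b (r = 0.97), all with their highest level in Cre positive replicate 2. Baz2b, for example, measured 109, 148 and 120 CPM and 158, 322 and 102 CPM. Nearest to the mean of Mpo, Elane, Prtn3 and Ctsg were Kdsr (r = 0.99), Entpd7 (r = 0.99) and Srf (r = 0.98). Entpd7 measured 16.2, 7.89 and 3.53 CPM in Cre negative and 23.0, 11.9 and 2.05 CPM in Cre+ labelled libraries. Of the 10 nearest genes to either mean, 0 belonged to the granule, myeloid or cell type lists used here. With 6 libraries and this many genes, high values of r are common, and the libraries share depth and composition.

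Markers of mature cells were high in some of the same libraries as these genes. The sum of 10 mature neutrophil markers other than the S100 pair was 60.4, 77.8 and 80.8 CPM in Cre negative and 143, 247 and 54.3 CPM in Cre+ labelled libraries, and the 7 of the 10 that passed the filter on low counts had the higher mean there. Its highest library was that of the S100 pair. Csf3r, the G-CSF receptor, made up 106 CPM of that library's sum and Cd177 66.8 CPM. In Cre+ labelled replicates 1 and 3 Cd177 measured 2.88 and 0.0136 CPM, below the 13.9 to 24.0 CPM of Cre negative HSCs. The chemokine receptor gene Cxcr2, not tested, lay on the other side without overlap, at 0.131, 13.6 and 1.30 CPM and 0.0374, 0 and 0 CPM. Il1b, not tested either, had reads in Cre negative replicate 1 alone, at 1.72 CPM. Ly6g, a defining neutrophil antigen, had 0 reads in every HSC library except Cre positive replicate 1, at 8.59 CPM. In that library 8 eosinophil markers summed to 291 CPM, against 3.49 to 13.2 CPM in the other 5. Prg2 and Epx, the major basic protein and the eosinophil peroxidase, measured 207 and 45.1 CPM there and 0 in the other 5, as did Ear1, Ear6 and Prg3 at 9.30, 9.40 and 11.5 CPM. This was also the library with the most Mpo, Elane and Ctsg. Cre negative replicate 1, with the next highest Mpo and Elane and the only other Ctsg reads, had an eosinophil sum of 3.92 CPM. Of 10 mast cell and basophil markers 7 were at 0 in all HSC libraries. Cd48, whose product the gate excluded, measured 12.6, 17.4 and 25.4 CPM and 3.28, 8.53 and 0 CPM, lower in Cre+ labelled libraries (edgeR unadjusted p = 0.238). Sinusoidal endothelial markers summed to 11388, 7194 and 4905 CPM in Cre negative and 5395, 4890 and 6928 CPM in Cre+ labelled HSC libraries. Hepatoblast markers summed to 1973, 2831 and 1345 CPM and 2195, 1762 and 1866 CPM. The 12 HSC markers summed to 1139, 1695 and 2483 CPM and 2058, 2142 and 1727 CPM. The part of mature or other cells in the reads of the 10 genes was not tested.

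Other genes of the granule and myeloid programme were counted from lists, and in HSCs 0 members of any list passed edgeR's test. Of all 13962 genes tested in HSCs, 6940 had the higher and 7022 the lower mean with the Cre+ label. Of 7 azurophil granule genes beyond the 10, 5 had a higher and 2 a lower mean with the Cre+ label (median log2 fold change 0.33). Among them, Ctsc, the protease that activates the granule serine proteases, measured 245 ± 28.5 and 320 ± 103 CPM (SD, n = 3 each, Cre negative first), and Cd63 and Srgn, a granule membrane protein and a granule proteoglycan, had log2 fold changes of 0.30 and 0.33. Of 17 specific and gelatinase granule genes beyond the 10, 13 had a higher and 4 a lower mean (median 0.21). Mmp8, neutrophil collagenase, measured 2.41, 0.0644 and 0 CPM and 28.7, 19.6 and 0.682 CPM. Mmp9, gelatinase B, measured 2.98, 8.44 and 0 CPM and 28.4, 11.3 and 2.66 CPM, while the metal transporter gene Slc11a1 lay on the other side at 54.0 ± 31.8 and 28.5 ± 9.24 CPM. Both granule lists had a smaller median than the 0.76 of the 9 genes, and 0 of these 24 genes separated the groups, where 6.37% of all genes tested did so with higher and 9.33% with lower levels.

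The S100 list beyond the calprotectin pair had 4 higher and 1 lower of 5, with S100a11 at 105 ± 1.63 and 139 ± 32.8 CPM, S100a4 at 0.852 ± 1.48 and 3.72 ± 2.79 CPM, and S100a6 as the lower one at 8.99 ± 2.24 and 5.66 ± 5.21 CPM. Of the 6 NADPH oxidase genes, whose products make superoxide, 5 had the higher mean (median 0.49). Cyba and Ncf4, the p22phox and p40phox subunits, separated the groups, 2 of 6 against 6.37% of all genes tested, with Cyba at 210, 196 and 219 CPM and 284, 250 and 318 CPM (edgeR unadjusted p = 0.0417, adjusted p = 0.775). The GTPase gene Rac2 measured 440 ± 126 and 634 ± 103 CPM. Of 14 receptor and adhesion genes, 11 had the higher mean (median 0.38). Among these 14, 3 separated the groups with higher and 0 with lower levels, against 6.37% and 9.33% of all genes tested. Fcgr3, a receptor for IgG, measured 78.3, 64.2 and 94.0 CPM and 138, 118 and 95.0 CPM, so that the groups lay apart by a narrow margin. Fpr2, a formyl peptide receptor, measured 4.46, 0.476 and 0 CPM and 13.4, 9.25 and 21.6 CPM. Tlr4 measured 19.7 ± 10.1 and 9.27 ± 4.92 CPM.

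Among 15 early myeloid progenitor genes other than Plac8, 7 had a higher and 8 a lower mean (median -0.06), so the list as a whole did not share the direction of Plac8. The receptor chains for GM-CSF stood on the side of Plac8. Csf2ra, the ligand-binding chain, measured 24.8, 28.5 and 40.7 CPM in Cre negative and 78.3, 68.6 and 69.4 CPM in Cre+ labelled libraries (log2 fold change 1.20, SE 0.33, edgeR unadjusted p = 0.00625, adjusted p = 0.689). Csf2rb, the signalling chain, measured 51.1, 37.8 and 60.2 CPM and 84.2, 70.3 and 82.2 CPM. Calr, the calreticulin gene, measured 697 ± 204 and 443 ± 117 CPM. In this list 3 of the 15 separated the groups with higher and 2 with lower levels in Cre+ labelled libraries, against 6.37% and 9.33% of all genes. Of 17 myeloid transcription factor genes 11 had the higher mean (median 0.24). Among these 17, 3 separated the groups with higher and 0 with lower levels, against the same 6.37% and 9.33%. Ikzf1, which encodes Ikaros, measured 6.47, 18.3 and 24.3 CPM and 26.5, 55.5 and 75.9 CPM (log2 fold change 1.69, SE 0.61, edgeR adjusted p = 0.736). Cebpb measured 74.2, 83.0 and 119 CPM and 129, 133 and 158 CPM, without overlap. Spi1, the gene of PU.1, measured 110, 116 and 235 CPM and 269, 245 and 187 CPM, with overlap.

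**Figure D4:**
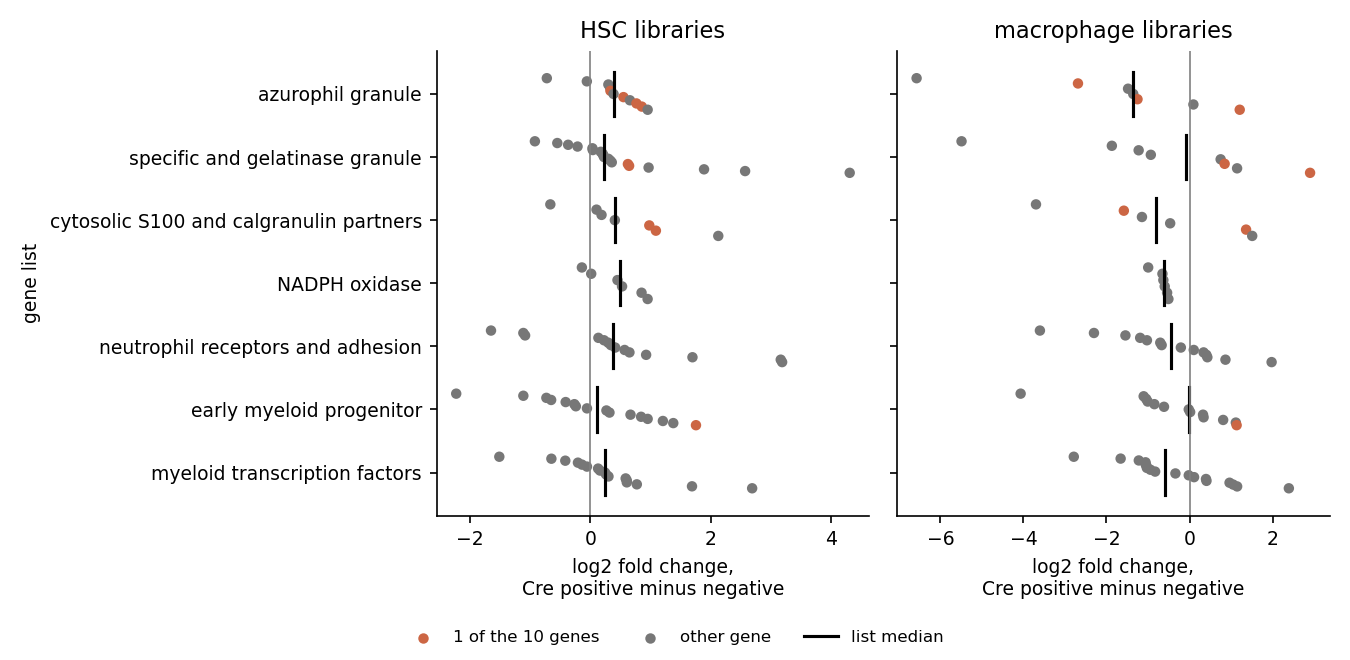
Log2 fold change, Cre positive minus negative label, of every tested gene in 7 granule and myeloid lists, for HSC libraries (left) and macrophage libraries (right), on axes of different range. Each point is a gene, orange for the 10 genes described here, and the black bar is the list median with those genes included. This median lies above 0 for all 7 lists in HSCs, but that of the early myeloid progenitor list was -0.06 without Plac8. In macrophages it lies below 0 for all 7, where the median of all genes was -0.16. The macrophage medians of the specific granule and early myeloid lists, -0.09 and -0.02, lay above that of all genes.

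In macrophage libraries only Lyz2 was present in every library, and the other 9 genes had 0 reads in at least 1. Lyz2 measured 71.0, 550 and 417 CPM in Cre negative and 88.9, 125 and 221 CPM in Cre positive libraries. Cre negative replicate 1 was the lowest of all 6, so the groups overlapped, with a log2 fold change of -1.25 (SE 0.60, edgeR unadjusted p = 0.0577, adjusted p = 0.978). The summed level of 16 macrophage markers followed the same libraries, at 2022, 7648 and 6586 CPM and 2513, 2888 and 5074 CPM. Of these sums Mrc1 alone gave 1286, 1174 and 1353 CPM and 1406, 1654 and 1281 CPM, so it made up most of the lowest ones. The lower mean in Cre positive libraries was found for 14 of the 16, against 9981 of all 17806 genes tested. The sum of monocyte markers was 696, 2081 and 2252 CPM and 536, 718 and 1712 CPM. Hepatoblast markers summed to 2784 CPM in Cre negative replicate 1 and to 355 to 678 CPM in the other 5. Sinusoidal endothelial markers ran the other way, at 15519, 8701 and 8789 CPM and 12457, 15553 and 11732 CPM, and 10 of 10 had the higher mean with Vav-Cre. Mitochondrial genes took 7.72%, 14.2% and 13.9% of reads and 10.6%, 7.68% and 7.96%, so both libraries with the most Lyz2 also had the largest mitochondrial share. The part of cell content or of these shares in the Lyz2 difference was not tested.

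**Figure D5:**
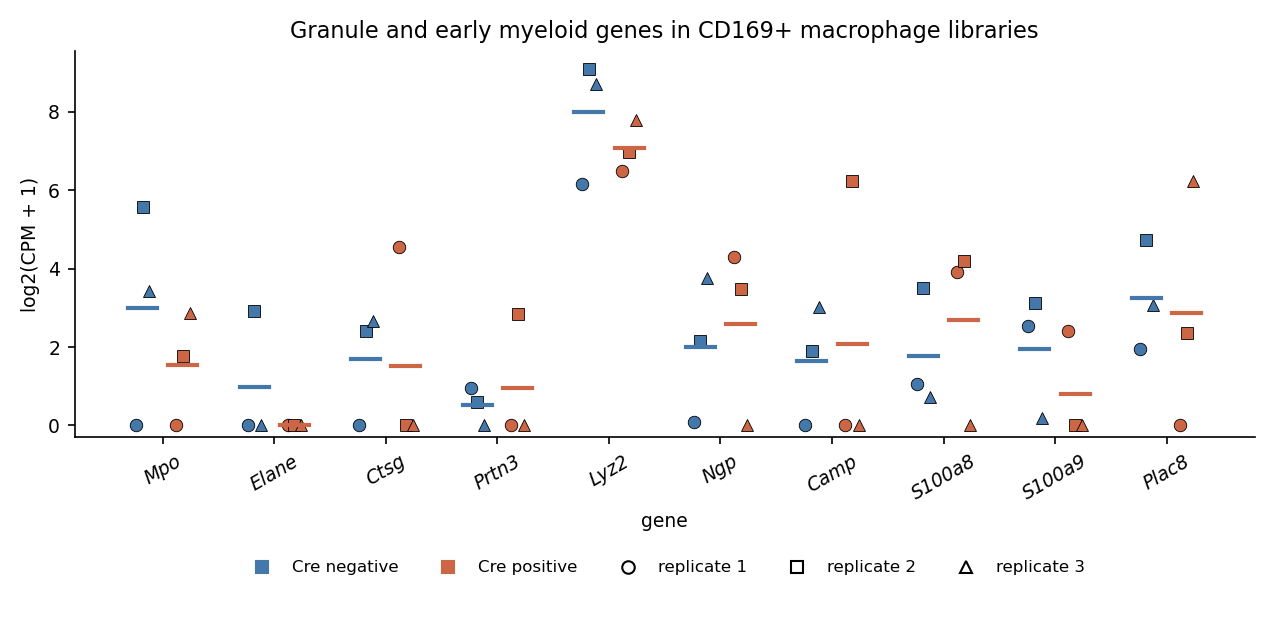
Level of each of the 10 genes in the 6 CD169+ macrophage libraries, as log2(CPM + 1), with colour for the Cre label, marker shape for the replicate number and a horizontal line at the mean of the 3 log2 values of a group. Lyz2 lies between 71.0 and 550 CPM, and every other gene has at least 1 library at 0.

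The granule genes were sparse in this sort. Mpo measured 0, 46.8 and 9.82 CPM in Cre negative and 0, 2.42 and 6.26 CPM in Cre positive libraries. Elane had 140 reads in Cre negative replicate 2 (6.54 CPM) and 0 in the other 5 libraries. Prtn3 had 60 reads in all and Ctsg 273, each with 3 libraries at 0. The Cre negative replicate 2 library was the highest in both Mpo and Elane. Ngp measured 0.0579, 3.45 and 12.5 CPM and 18.7, 10.2 and 0 CPM. Camp reached 74.2 CPM in Cre positive replicate 2, was at 0 in the other 2 Cre positive libraries and measured 0, 2.71 and 7.19 CPM in Cre negative ones. No library was high in all of these genes.

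S100a8 measured 1.10, 10.4 and 0.646 CPM in Cre negative and 14.0, 17.3 and 0 CPM in Cre positive macrophages, and S100a9 4.81, 7.75 and 0.138 CPM and 4.32, 0 and 0 CPM. In Cre positive replicate 2 S100a8 had 93 reads and S100a9 had 0, so the pair that kept a near-constant ratio in HSC libraries did not do so here. Plac8 measured 2.84, 25.4 and 7.42 CPM and 0, 4.09 and 74.0 CPM. In macrophages 3 reads amount to about 0.136 to 0.172 CPM without and 0.512 to 1.07 CPM with Vav-Cre, and a gene with 0 reads may have lain at up to that level. These limits were scaled to library totals before the filter on low counts and so lie slightly under the CPM scale used here. The 3 reads of S100a9 in Cre negative replicate 3, for example, measured 0.138 CPM. The 0.0579 CPM of Ngp in Cre negative replicate 1 rests on 1 read. For genes with libraries at 0 the fitted fold changes depend on the prior count, and their SEs ranged from 1.60 to 2.61 on the log2 scale.

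By the test, 8 of the 10 genes entered in macrophages (Elane and Prtn3 did not), 5 with the higher and 3 with the lower mean in Cre positive libraries. None passed, as was so for all 17806 genes tested (0%, with 965 at an unadjusted p under 0.05 in edgeR and 54, or 0.303%, called by DESeq2). Of the 8 tested genes 0 separated the groups, against 2.27% of all genes lying higher and 11.8% lower in Cre positive libraries without overlap. Their median log2 fold change was 0.99, against -0.16 for all genes. That median rested on genes with libraries at 0 and was -0.13 and -0.12 without Cre positive replicates 1 and 2.

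Lists of the same programme in macrophages held 0 genes that passed. All 6 NADPH oxidase genes had the lower mean in Cre positive libraries (median -0.61), with Cyba at 132 ± 73.2 and 66.3 ± 32.6 CPM, Cybb at 111 ± 85.0 and 71.6 ± 37.8 CPM and Rac2 at 75.5 ± 47.5 and 53.0 ± 33.8 CPM (SD, n = 3 each). Of 4 azurophil genes beyond the 10, 3 had the lower mean. Cd63 measured 112, 134 and 178 CPM and 59.7, 10.2 and 82.1 CPM, without overlap (edgeR unadjusted p = 0.0247, adjusted p = 0.773). Serpinb1a, an inhibitor of the granule serine proteases, measured 0.985, 6.35 and 14.8 CPM and 0, 0.186 and 0 CPM, also without overlap (edgeR unadjusted p = 0.0390, adjusted p = 0.837), and Ctsc 257 ± 197 and 100 ± 65.8 CPM. In the specific granule list 2 were higher and 4 lower beyond the 10. Hp, the haptoglobin gene, which hepatocytes also express, measured 135, 0.420 and 5.21 CPM and 1.08, 2.05 and 0 CPM, its highest library being that of the hepatoblast markers (edgeR unadjusted p = 0.0119, adjusted p = 0.773). Slc11a1 measured 91.9 ± 76.6 and 25.0 ± 27.3 CPM, and Mmp25 11.3 ± 3.56 and 25.0 ± 21.7 CPM.

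The macrophage S100 list had 1 higher and 3 lower beyond the pair. S100a11 and S100a6 lay lower with Vav-Cre without overlap, at 71.8 ± 34.1 and 32.4 ± 5.58 CPM and at 9.97 ± 12.6 and 0.766 ± 0.667 CPM, and S100a10 measured 283 ± 70.5 and 205 ± 54.6 CPM. Of the receptor genes 6 were higher and 8 lower. Itgam and Pirb, an integrin chain and an inhibitory receptor, lay lower without overlap, Itgam at 8.79 ± 4.38 and 0.696 ± 1.21 CPM and Pirb at 10.02, 18.7 and 15.8 CPM and 0, 8.92 and 0 CPM, and Itgb2 measured 56.0 ± 31.4 and 35.3 ± 26.6 CPM. Progenitor genes other than Plac8 were 5 higher and 7 lower. Csf2rb2, the beta chain of the mouse IL-3 receptor, was the higher one without overlap, at 68.8, 72.2 and 60.1 CPM and 115, 217 and 103 CPM (edgeR unadjusted p = 0.0256, adjusted p = 0.773). Calr was the lower one without overlap, at 862, 1421 and 1277 CPM and 813, 752 and 760 CPM (edgeR unadjusted p = 0.0403, adjusted p = 0.848), and Cd48 measured 11.9 ± 10.8 and 0.682 ± 1.18 CPM. Transcription factor genes were 7 higher and 11 lower, with Id2 at 144 ± 74.0 and 45.7 ± 25.8 CPM, Spi1 at 6.43, 123 and 104 CPM and 42.1, 18.0 and 53.9 CPM, and Cebpa at 36.4 ± 3.88 and 15.6 ± 15.2 CPM. These separations are read against the 2.27% of all macrophage genes that lay higher and the 11.8% that lay lower without overlap.

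Whether the difference between Cre labels itself differed between the sorts was tested as an interaction over 32210 identifiers common to both tables. Of 20128 genes tested, 14 passed (0.0696%), and 0 of the 10 did. Lyz2, higher in HSCs and lower in macrophages with the Cre positive label, had an interaction of -2.09 on the log2 scale (SE 0.75, edgeR unadjusted p = 0.0141, adjusted p = 0.513). Over 17 alternatives it lay between -2.55 and -1.61, with adjusted p between 0.0446 and 0.890, and the lowest of these, without macrophage Cre negative replicate 1, was the only 1 of the 17 to pass. DESeq2 called 747 genes (3.71%), Elane among them, which had reads in only 1 macrophage library. For Plac8 the interaction ran from -4.17 to 0.56 over the same alternatives.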

How the data were processed

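The authors deposited whole-number read counts for every gene, without normalization, as 1 table for HSCs and 1 for macrophages. Per the submitters' processing notes, the HSC table came from STAR 2.7.6a and from featureCounts in Subread 2.0.1, with GRCm38 (mm10) as the build. For macrophages the notes name only mm10. How strand and multiply mapped reads were set is not given in the sources used here. Libraries were made from sorted cells with the SMART-Seq v4 kit, in 1 batch per sort, per the labels' protocols. Reads were amplified without molecular identifiers, so a floor of 3 counts covers counting error only. Mitochondrial ribosomal RNA took reads in macrophage libraries and 0 in HSC libraries.

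Gene names and exon lengths were taken from GENCODE M21. Each table was fitted alone with edgeR 4.0.16 in R 4.3.3 (filterByExpr, TMM, robust quasi-likelihood, Benjamini-Hochberg over all genes tested, threshold 0.05), and an interaction of Cre label and sort was fitted over all 12 libraries. The SEs given with edgeR fits were derived as the absolute log2 fold change over the square root of the test's F statistic, not taken from the fit itself. All per-sample columns matched a sample. The edgeR step was tested on simulated data, where a pass was required only at a fixed spread and not at that estimated from these libraries. That test does not show how the step performs at the spread seen here. The 10 genes, the gene lists and the motifs were chosen with earlier results of these data known. From each list up to 3 genes per sort with the smallest unadjusted p are named, and from each likeness ranking the 10 nearest genes were taken. Named outside that rule, after their values were seen, are the cell type markers given as levels, Cd48 in HSCs, Jag1 and Lyz1. Alternatives were other scaling, DESeq2 1.42.0, other filters on low counts, thinning of macrophage libraries to equal depth, leaving out each library and a replicate block. Whether replicate numbers paired the samples could not be told. The correlation of deviations between libraries of 1 number was -0.000502 to 0.0211 in HSCs and 0.00842 to 0.0366 in macrophages. The highest with a library of another number was 0.0104 to 0.0238 and -0.0144 to 0.0113. Correlations this small over all genes do not decide it.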

Additional observations from a re-analysis of the deposited data

How the results depend on the processing

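With DESeq2, 129 genes were called in HSCs, 54 in macrophages and 747 in the interaction, and among the 10 genes 1 in HSCs (Plac8) and 1 in the interaction (Elane). Without a filter on low counts, 21 genes were called in macrophages. The interaction count was 8 on library totals and 9 with upper-quartile scaling. The replicate block, fitted although it is not known whether the numbers pair the samples, gave 13 genes in macrophages and 96 in the interaction. Under it the macrophage median of the tested genes among the 10 was -1.30. The log2 fold changes were -0.25 for Mpo and -0.83 for Elane in HSCs. In macrophages they were -5.23 for Ctsg, -0.43 for Camp and -1.70 for Plac8. The block gave 0 calls among the 10 genes. The causes of these shifts were not tested.

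Leaving out 1 library at a time, the HSC median of the tested genes among the 10 ranged from 0.42 to 1.06. Mpo ranged from -1.00 to 0.97, Elane from -0.44 to 1.35, S100a9 from -0.010 to 1.32 and Camp from -0.46 to 1.00. In macrophages Ctsg ranged from -8.56 to 1.79, Ngp from -0.13 to 2.43, Camp from -8.50 to 4.16 and Plac8 from -2.58 to 2.32, the lowest values being reached without the Cre positive library in which the gene was highest. The macrophage median of the tested genes among the 10 ranged from -0.13 to 1.41. The count of called genes ranged from 1 to 34 in macrophages and from 6 to 210 in the interaction, with 108, 210 and 104 without Cre positive macrophage replicates 1, 2 and 3, and 0 to 1 of the 10 genes called there.

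Of 108 log2 fold changes of single genes under an alternative in HSCs, 100 kept direction and side of the threshold, as did 97 of 104 in macrophages. Thinning the macrophage libraries to equal depth left the median of the tested genes among the 10 at 0.94, with 0 of them called.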
